A study of Homo sapiens with 6 samples.

Results

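Transcripts of 54 assembly factors of the small (40S) ribosomal subunit were measured by RNA-seq in A2780 cells, a human line from an ovarian cancer. The members are the SSU processome proteins, the box C/D snoRNP proteins and the 40S maturation factors of a list of gene symbols, and all 54 were found by symbol among the Ensembl identifiers of 60564 gene rows. The groups are 3 libraries labelled GPT2si and 3 labelled GPT2sinc, and the series title names GPT2 deficiency as its subject. GPT2 encodes the mitochondrial alanine aminotransferase. The labels do not spell out si and sinc, and they state neither a treatment time nor whether the replicates were grown separately. All 6 libraries are of the same line.

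The small subunit is built in the nucleolus around the nascent ribosomal RNA precursor, in a large particle called the SSU processome. The U3 snoRNP, a box C/D particle, base-pairs with the precursor while the UTP-A and UTP-B protein complexes hold its 5′ end. UTP-C is a further protein complex of the particle. Nucleases, helicases and modifying enzymes then cut, unwind and mark the 18S part. Late factors escort the pre-40S particle to the cytoplasm, where the last cut completes 18S ribosomal RNA. Dividing tumour cells depend on a steady supply of these proteins.

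Total counts ran from 41931162 to 50882329 in the GPT2si libraries and from 43351984 to 45508530 in the GPT2sinc libraries. GPT2 itself was at 93.8, 94.3 and 96.9 CPM in GPT2si 1 to 3, against 236, 229.9 and 219 CPM in GPT2sinc 1 to 3 (log2 fold change −1.26, SE 0.08). CPM are counts scaled to a common library size with TMM factors. The labelled cell type was checked on marker genes. The sum of 6 epithelial markers was 64.4 to 80.7 CPM in GPT2si and 57.5 to 60.2 CPM in GPT2sinc. KRT8 and KRT18, keratins of simple epithelia, made up most of it. Of the 6, 3 were under 1 CPM in every library: CDH1, KRT19 and KRT7, the last at 0. EPCAM averaged 1.61 CPM in GPT2si and 1.94 CPM in GPT2sinc. All 5 ovarian tumour markers examined, PAX8 and WT1 among them, were under 1 CPM in every library. WT1 was at 0, and the 5 summed to 0.564 to 0.637 CPM in GPT2si and 0.775 to 1.01 CPM in GPT2sinc. The sum of 6 fibroblast markers, mostly COL1A1, COL1A2 and PDGFRA, was 529.7 to 569.9 CPM in GPT2si and 526 to 548 CPM in GPT2sinc. Leukocyte markers summed to 4.85 to 8.95 CPM in GPT2si and 6.66 to 6.80 CPM in GPT2sinc with CD3E at 0, 4 endothelial markers to at most 0.299 CPM, and 4 erythroid markers to 1.25 to 1.295 CPM in GPT2si and 1.52 to 1.89 CPM in GPT2sinc with HBB at 0. The part of these differences in the results was not tested. The 13 mRNAs encoded by mitochondrial DNA took 4.37%, 5.08% and 4.46% of the raw counts in GPT2si, against 4.54%, 3.38% and 4.14% in GPT2sinc, which overlap. Their summed TMM-scaled CPM did not overlap, at 44235 to 54614 in GPT2si and 33128 to 42907 in GPT2sinc. Of the 13, 12 had a positive log2 fold change, with a median of 0.34, 7 were separate and higher, and 0 passed edgeR (7 higher at an unadjusted p under 0.05, 3 in DESeq2). Over all genes tested, 14.9% were separate and higher, 10.3% were higher at an unadjusted p under 0.05 and 3.35% were higher in DESeq2. The part of this mitochondrial difference in the members' values was not tested.

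Most assembly factors had higher estimates in the GPT2si libraries, by modest amounts. Of the 54 members, 47 had a positive log2 fold change, with a median of 0.30 (quartiles 0.21 and 0.44), where 48.0% of the 17006 genes tested were positive and their median was −0.01. Past the test, 7 members rose and 0 fell: RRP9, NOL6, NOP56, UTP4, UTP14A, PDCD11 and DIMT1. These 7 are 12.96% of the members, beside 0.576% of all genes tested called higher and 0.841% called lower (edgeR quasi-likelihood test, Benjamini-Hochberg adjusted p under 0.05 over all genes tested). All 54 passed the filter on low counts. The mitochondrially encoded mRNAs, whose median was 0.34, lay to the same side. At an unadjusted p under 0.05, 33 members were higher and 1 was lower, beside 10.3% and 9.27% of all genes. Read counts are shares of a library, so more transcript per cell cannot be told apart from fewer transcripts of other genes.

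**Figure D1:**
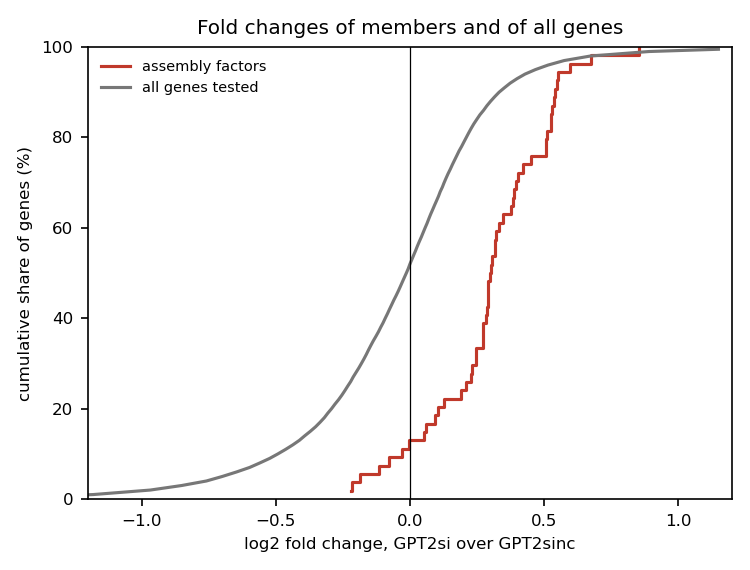
Cumulative share of genes (vertical axis, percent) against the fitted log2 fold change of GPT2si over GPT2sinc (horizontal axis) for the 54 assembly factors and for all genes tested. The members' curve lies to the right of that of all genes over most of its length, with a median of 0.30 against −0.01, and their largest value is 0.85.

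In 34 members (63.0%) every GPT2si library lay above every GPT2sinc library, a separation seen in 14.9% of all genes tested. In 1 member, NAT10, every GPT2si library lay below, as in 13.2% of all genes, and in 19 the groups overlapped. The 7 calls lie close to the threshold: their edgeR adjusted p ran from 0.0378 for PDCD11 to 0.0493 for NOL6 and UTP4, and the next member, PNO1, was at 0.0620. The count depends on single libraries and on the tool. It was 0 without GPT2si 1 and likewise without GPT2sinc 1, 2 or 3. Those fits called few genes at all: over all genes, 1 was higher without GPT2si 1, and 3, 0 and 1 without GPT2sinc 1, 2 and 3. The count of members was 3 without GPT2si 3, where 51 of all genes were higher. It was 14 without GPT2si 2 (2.15% of all genes higher in that fit). With DESeq2 15 members rose, beside 3.35% of all genes. With the replicate number as a block, a pairing the data do not bear out, 10 rose, beside 1.48%. All 7 were among the 14, the 15 and the 10.

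**Figure D2:**
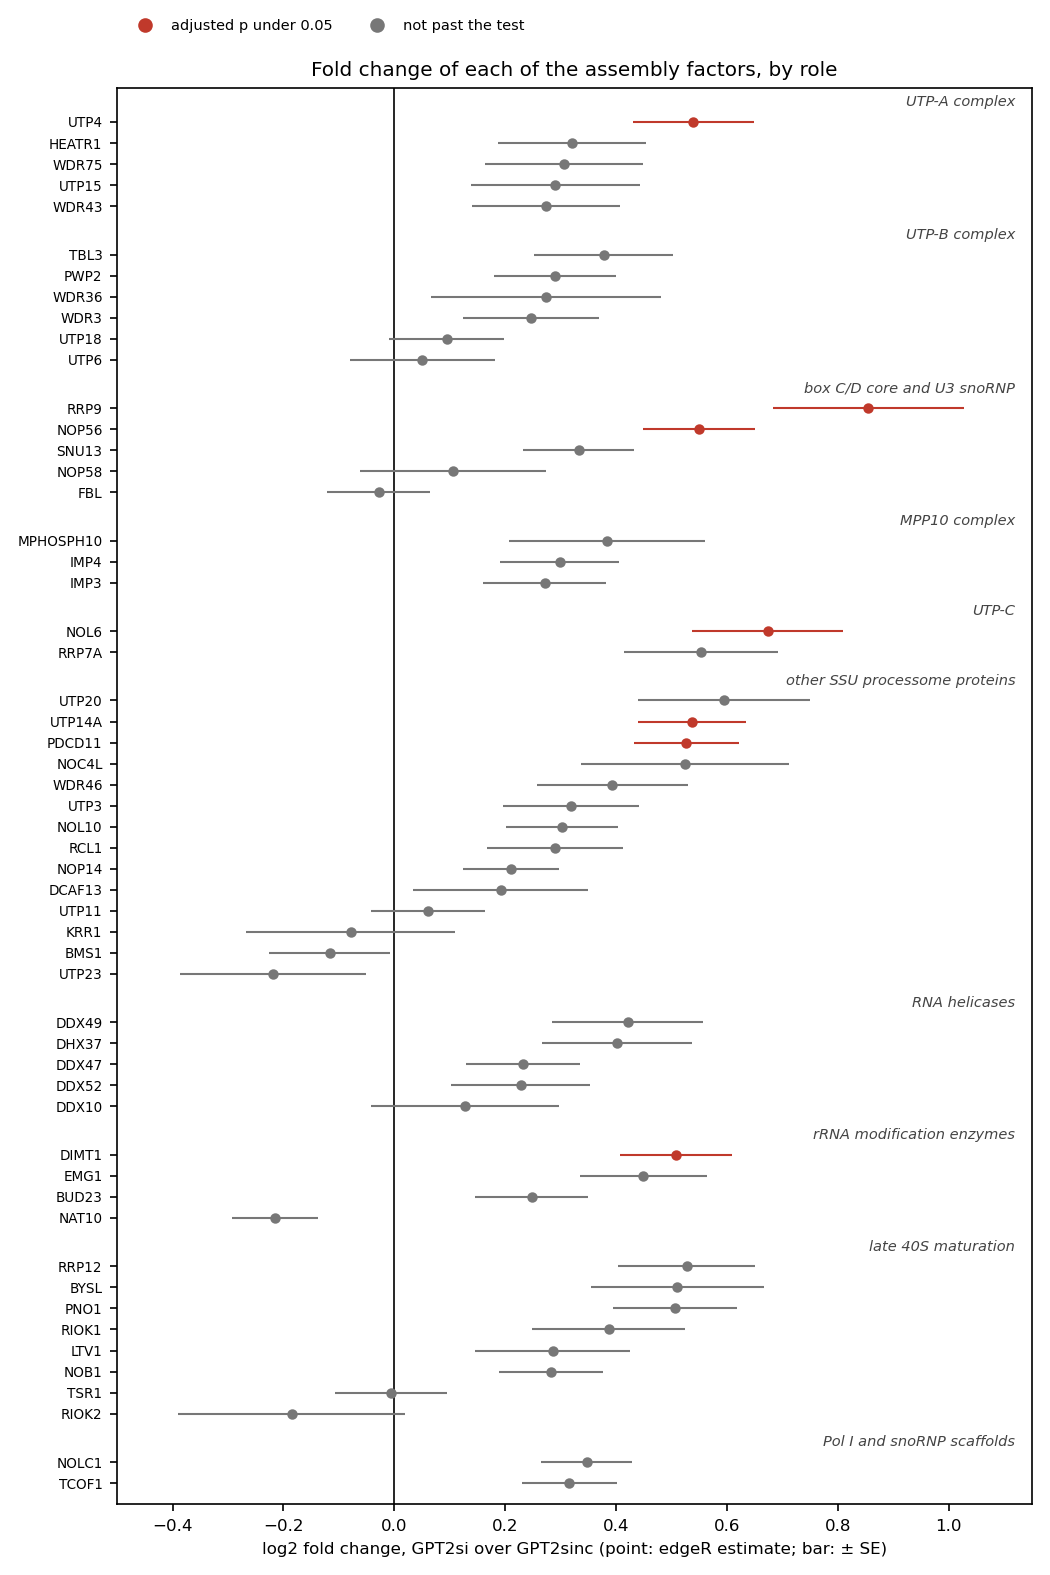
Fitted log2 fold change of GPT2si over GPT2sinc (horizontal axis, point) with its SE (bar) for each assembly factor, grouped by role, with those past the test in red. Values run from −0.22 for UTP23 to 0.85 for RRP9, and 47 of 54 lie to the right of 0.

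The box C/D and U3 snoRNP proteins had unequal estimates. RRP9 (ENSG00000114767; GRCh38 chromosome 3, 51933430 to 51941941, minus strand), the WD-repeat protein that marks the U3 particle, had the largest fold change of all members. It was at 33.7, 44.1 and 28.8 CPM in GPT2si 1 to 3, against 16.2, 20.9 and 21.8 CPM in GPT2sinc 1 to 3. The lowest GPT2si library was above the highest GPT2sinc library, and the rise was 0.85 on the log2 scale (SE 0.17, edgeR adjusted p = 0.0487). NOP56 (ENSG00000101361; chromosome 20, 2652145 to 2658393, plus strand), a core protein of all box C/D particles, was at 215, 241 and 203 CPM in GPT2si, against 133, 156 and 162 CPM in GPT2sinc. The groups did not overlap (219.8 ± 19.4 against 150.2 ± 14.9 CPM, SD, n = 3 each; log2 fold change 0.55, SE 0.10, edgeR adjusted p = 0.0413). The 3 rows named as NOP56 pseudogenes held at most 8 counts in any library, against at least 6115 for NOP56.

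The partners of NOP56 in the same core did not pass. FBL, the fibrillarin methyltransferase that gives the particle its activity, was at 422, 467 and 383 CPM in GPT2si and 406, 442 and 449 CPM in GPT2sinc. Its groups overlapped, with a log2 fold change of −0.03 (SE 0.09). NOP58, the paralogue that pairs with NOP56, was at 16.6, 12.2 and 19.4 CPM in GPT2si and 15.6, 13.8 and 15.5 CPM in GPT2sinc (0.11, SE 0.17), also overlapping. SNU13, which binds the kink-turn of the snoRNA, was at 141, 159 and 132 CPM in GPT2si, against 104, 119.5 and 119.4 CPM in GPT2sinc. Those groups were separate (0.33, SE 0.10, edgeR adjusted p = 0.123). Whether NOP56 and RRP9 differ from FBL and NOP58 in response was not tested.

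**Figure D3:**
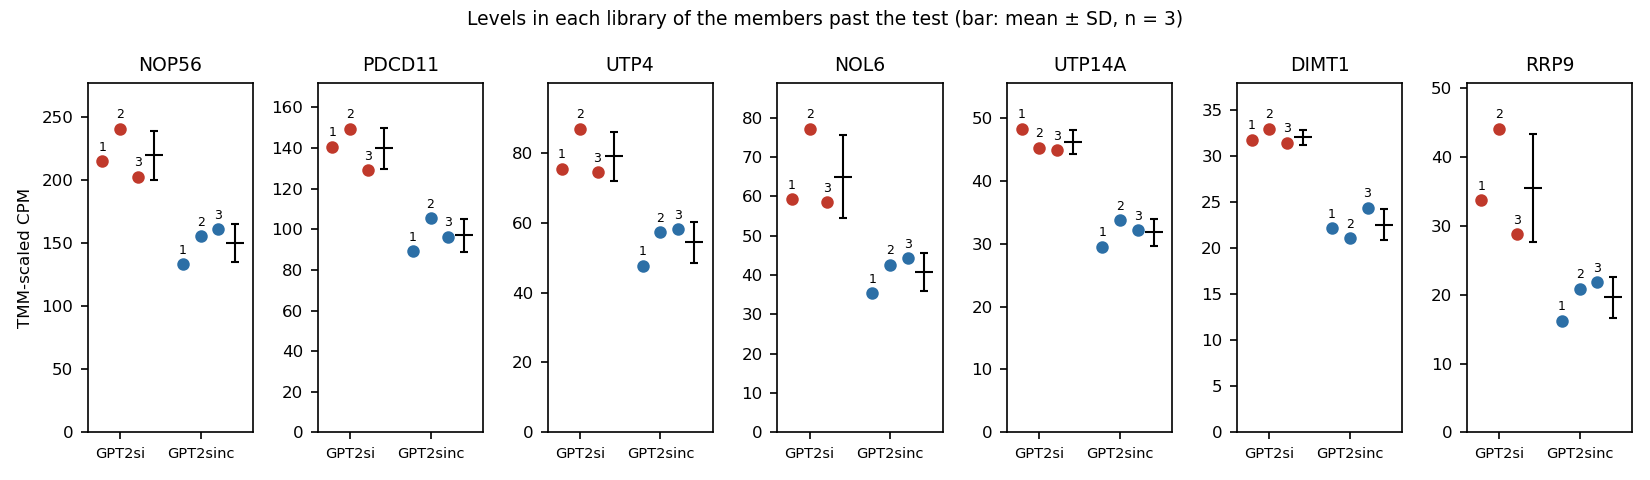
TMM-scaled CPM (vertical axis, from 0) in each GPT2si library (red, left) and each GPT2sinc library (blue, right) for the 7 members past the test, with replicate numbers beside the points and the mean ± SD (n = 3) as a bar. In each panel the lowest GPT2si point is above the highest GPT2sinc point, and GPT2si 2 is the highest library in 6 of the 7, the exception being UTP14A.

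The complexes that load first on the precursor had small positive values throughout. UTP-A binds the 5′ end of the precursor and is tied to its transcription by RNA polymerase I. Its member UTP4, also called cirhin (ENSG00000141076; chromosome 16, 69131291 to 69231130, plus strand), was at 75.5, 86.9 and 74.5 CPM in GPT2si, against 47.7, 57.2 and 58.1 CPM in GPT2sinc. It rose by 0.54 (SE 0.11, edgeR adjusted p = 0.0493). Exons of UTP4 overlap those of CHTF8 on the opposite strand, and whether the counting used strand is not stated in the labels. CHTF8 was at 164, 204 and 162 CPM in GPT2si and 125, 159.9 and 158 CPM in GPT2sinc (0.26, SE 0.12). Many other members, UTP14A among them, also share exonic sequence with a gene on the opposite strand, and their counts are uncertain to that extent. Exons of EMG1, DDX47 and LTV1 overlap those of other protein-coding genes on the same strand, which counting by strand would not resolve. The other 4 members of UTP-A, HEATR1, WDR75, UTP15 and WDR43, had log2 fold changes from 0.27 to 0.32 and overlapping groups. HEATR1, a long HEAT-repeat protein, was at 65.8, 49.3 and 70.4 CPM in GPT2si and 52.9, 48.6 and 47.0 CPM in GPT2sinc, so that GPT2si 2 lay within the GPT2sinc range. WDR75 showed the same layout (35.8, 27.5 and 37.9 CPM in GPT2si against 31.1, 25.4 and 25.4 CPM in GPT2sinc).

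UTP-B is a complex mostly of WD-repeat proteins that joins after UTP-A. Of its 6 members, 0 passed and all 6 were positive, with a median of 0.26. TBL3 was at 62.8, 81.1 and 58.5 CPM in GPT2si, against 50.02, 52.8 and 52.9 CPM in GPT2sinc (0.38, SE 0.13, edgeR adjusted p = 0.148). PWP2 was separate as well (0.29, SE 0.11), and the groups overlapped in WDR3, WDR36, UTP18 and UTP6, the last at 0.05 (SE 0.13). The 3 proteins of the MPP10 complex, which steadies the duplex of U3 with the precursor, had close values: 0.38 for MPHOSPH10 (SE 0.18), 0.30 for IMP4 (SE 0.11) and 0.27 for IMP3 (SE 0.11). Each of the 3 was separate between the groups and 0 passed, where 14.9% of all genes tested were separate and higher.

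Both UTP-C proteins were higher, and 1 of them passed. NOL6 (ENSG00000165271; chromosome 9, 33461441 to 33473930, minus strand), the human counterpart of yeast Utp22, was at 59.2, 77.2 and 58.5 CPM in GPT2si, against 35.3, 42.7 and 44.3 CPM in GPT2sinc. It rose by 0.67 (SE 0.14, edgeR adjusted p = 0.0493). RRP7A, its binding partner, was at 129, 167 and 119 CPM in GPT2si, against 81.5, 97.9 and 104 CPM in GPT2sinc, again without overlap. Its log2 fold change of 0.55 (SE 0.14) did not pass in edgeR (adjusted p = 0.0845) and passed in DESeq2 (adjusted p = 0.00917).

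Among the 14 other SSU processome proteins, 2 rose, 11 were positive and 9 had separate groups. Of all genes tested, 0.576% rose, 48.0% were positive and 14.9% were separate and higher. PDCD11 (ENSG00000148843; chromosome 10, 103396626 to 103446292, plus strand), whose yeast counterpart Rrp5 binds the precursor RNA through many S1 domains, was at 141, 149.6 and 129 CPM in GPT2si, against 89.1, 106 and 96.4 CPM in GPT2sinc. It had the smallest p of the members (log2 fold change 0.53, SE 0.10, edgeR adjusted p = 0.0378). UTP14A (ENSG00000156697; chromosome X, 129906121 to 129929761, plus strand), whose yeast counterpart activates the helicase Dhr1, was at 48.3, 45.2 and 44.8 CPM in GPT2si, against 29.5, 33.7 and 32.1 CPM in GPT2sinc. Here GPT2si 2 was not the highest library, and the rise was 0.54 (SE 0.10, edgeR adjusted p = 0.0385). UTP14C, an expressed retrocopy of UTP14A, was far lower and overlapped between the groups (1.55, 1.87 and 3.40 CPM in GPT2si against 0.676, 3.83 and 1.33 CPM in GPT2sinc).

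UTP20, a very long scaffold protein, had a larger fold change than these and did not pass in edgeR. It was at 23.7, 17.1 and 25.7 CPM in GPT2si, against 14.3, 15.4 and 14.4 CPM in GPT2sinc (0.59, SE 0.15, edgeR adjusted p = 0.0891). All GPT2si libraries were above all GPT2sinc libraries, and the spread within GPT2si was wide. NOC4L, a partner of NOP14, was at 0.52 (SE 0.19) and WDR46 at 0.39 (SE 0.14), both separate between the groups. NOL10, UTP3, RCL1 and NOP14 lay between 0.21 and 0.32 and were separate too, while DCAF13 (0.19, SE 0.16) and UTP11 (0.06, SE 0.10) overlapped. Negative estimates came from 3 of the 14. UTP23 was at 7.80, 5.31 and 6.85 CPM in GPT2si and 8.41, 7.55 and 7.28 CPM in GPT2sinc (−0.22, SE 0.17). BMS1, the GTPase that works with RCL1, was at −0.12 (SE 0.11), and 21 rows carry BMS1 pseudogene names, with at most 167 counts each in any library. KRR1 was at −0.08 (SE 0.19).

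The 5 RNA helicases were all positive, with a median of 0.23, and 0 passed. DHX37, the counterpart of yeast Dhr1, which strips U3 from the 18S region, was at 57.3, 77.1 and 54.6 CPM in GPT2si, against 44.3, 48.8 and 49.9 CPM in GPT2sinc (0.40, SE 0.14). DDX49 was at 0.42 (SE 0.14) and DDX47 at 0.23 (SE 0.10), both separate. DDX52 (0.23, SE 0.13) and DDX10 (0.13, SE 0.17) overlapped between the groups.

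The enzymes that modify 18S ribosomal RNA had estimates of both signs. DIMT1 (ENSG00000086189; chromosome 5, 62387254 to 62403939, minus strand), which dimethylates adjacent adenosines near the 3′ end of 18S, was at 31.8, 33.0 and 31.5 CPM in GPT2si, against 22.2, 21.1 and 24.4 CPM in GPT2sinc. The libraries of each group lay close together and apart from those of the other group (0.51, SE 0.10, edgeR adjusted p = 0.0484). EMG1, a methyltransferase acting on a pseudouridine, was at 78.2, 99.4 and 79.3 CPM in GPT2si, against 57.6, 65.6 and 64.9 CPM in GPT2sinc (0.45, SE 0.11, edgeR adjusted p = 0.0854). BUD23, which makes 7-methylguanosine, was at 0.25 (SE 0.10) and separate. NAT10, the acetyltransferase that makes 4-acetylcytidine, was at 191, 178 and 173 CPM in GPT2si, against 212, 214 and 203 CPM in GPT2sinc. All GPT2si libraries were below all GPT2sinc libraries (−0.22, SE 0.08, edgeR adjusted p = 0.176), which did not pass.

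None of the 8 late 40S factors passed in edgeR, while 6 had separate groups. At an unadjusted edgeR p under 0.05, 5 were higher, and 3 passed in DESeq2. Of all genes tested, 14.9% were separate and higher, 10.3% were higher at that unadjusted p and 3.35% were higher in DESeq2. PNO1, which guards the cleavage site at the 3′ end of 18S, was at 30.9, 27.8 and 27.3 CPM in GPT2si, against 18.7, 19.5 and 22.3 CPM in GPT2sinc (0.51, SE 0.11, edgeR adjusted p = 0.0620). NOB1, the endonuclease that makes that cut, was at 129, 144 and 123 CPM in GPT2si, against 99.6, 114 and 112 CPM in GPT2sinc (0.28, SE 0.09, edgeR adjusted p = 0.151). RRP12, an export factor, was at 65.2, 79.8 and 59.1 CPM in GPT2si, against 43.3, 49.5 and 48.7 CPM in GPT2sinc (0.53, SE 0.12, edgeR adjusted p = 0.0713). BYSL, the counterpart of yeast Enp1, had a similar estimate with wider spread (0.51, SE 0.16). The atypical kinases RIOK1 and RIOK2 had estimates of opposite sign, 0.39 (SE 0.14) and −0.19 (SE 0.20), of which RIOK1 was separate and RIOK2 overlapped. LTV1 was at 0.29 (SE 0.14). TSR1, a GTPase-like factor of the cytoplasmic steps, was at 118, 92.6 and 112 CPM in GPT2si and 107, 110.1 and 107 CPM in GPT2sinc (−0.01, SE 0.10), with GPT2si 2 the lowest of the 6.

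The scaffolds NOLC1 and TCOF1 are related phosphoproteins that tie snoRNPs and RNA polymerase I to the nucleolus. NOLC1 was at 273, 251 and 264 CPM in GPT2si, against 193, 219 and 209 CPM in GPT2sinc (0.35, SE 0.08, edgeR adjusted p = 0.0727). TCOF1 was at 205, 229 and 196 CPM in GPT2si, against 164, 174 and 169 CPM in GPT2sinc (0.32, SE 0.09, edgeR adjusted p = 0.0998). Both were separate between the groups, and both passed in DESeq2 (adjusted p = 0.00981 and 0.0405).

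Levels between members were compared as CPM per kilobase of exonic length in GENCODE 29, where overlapping transcripts of a gene were merged. FBL was highest, at 195 ± 19.4 in GPT2si and 199 ± 10.8 in GPT2sinc (SD, n = 3 each). NOLC1 followed at 66.3 ± 2.79 in GPT2si and 52.1 ± 3.24 in GPT2sinc, close to NOB1 at 62.3 ± 5.17 and 51.2 ± 3.68; these neighbours did not differ beyond their spread. KRR1 was lowest, at 0.821 ± 0.178 in GPT2si and 0.868 ± 0.134 in GPT2sinc. That rank depends on its merged length of 10749 bases. By CPM alone KRR1, at 8.82 in GPT2si and 9.33 in GPT2sinc, was above LTV1, at 6.65 and 5.45. The core proteins of one particle were thus at unequal mRNA levels per length: NOP56 was at 40.7 ± 3.60 and NOP58 at 4.88 ± 1.11 in GPT2si, and NOP56 at 27.8 ± 2.76 and NOP58 at 4.54 ± 0.307 in GPT2sinc.

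Libraries within a group were not alike for these genes. After the mean over all 6 libraries had been taken off each gene, the median member was at 0.15, 0.12 and 0.13 log2 CPM in GPT2si 1 to 3 and at −0.22, −0.09 and −0.13 in GPT2sinc 1 to 3. GPT2si 2 had the widest quartiles, −0.13 and 0.36. It was the highest of the 6 libraries in 25 members and the lowest in 11. GPT2sinc 1 was the lowest in 31. Summed over all 54 members, CPM were 3765, 3984 and 3604 in GPT2si, against 2961, 3255 and 3214 in GPT2sinc, without overlap.

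**Figure D4:**
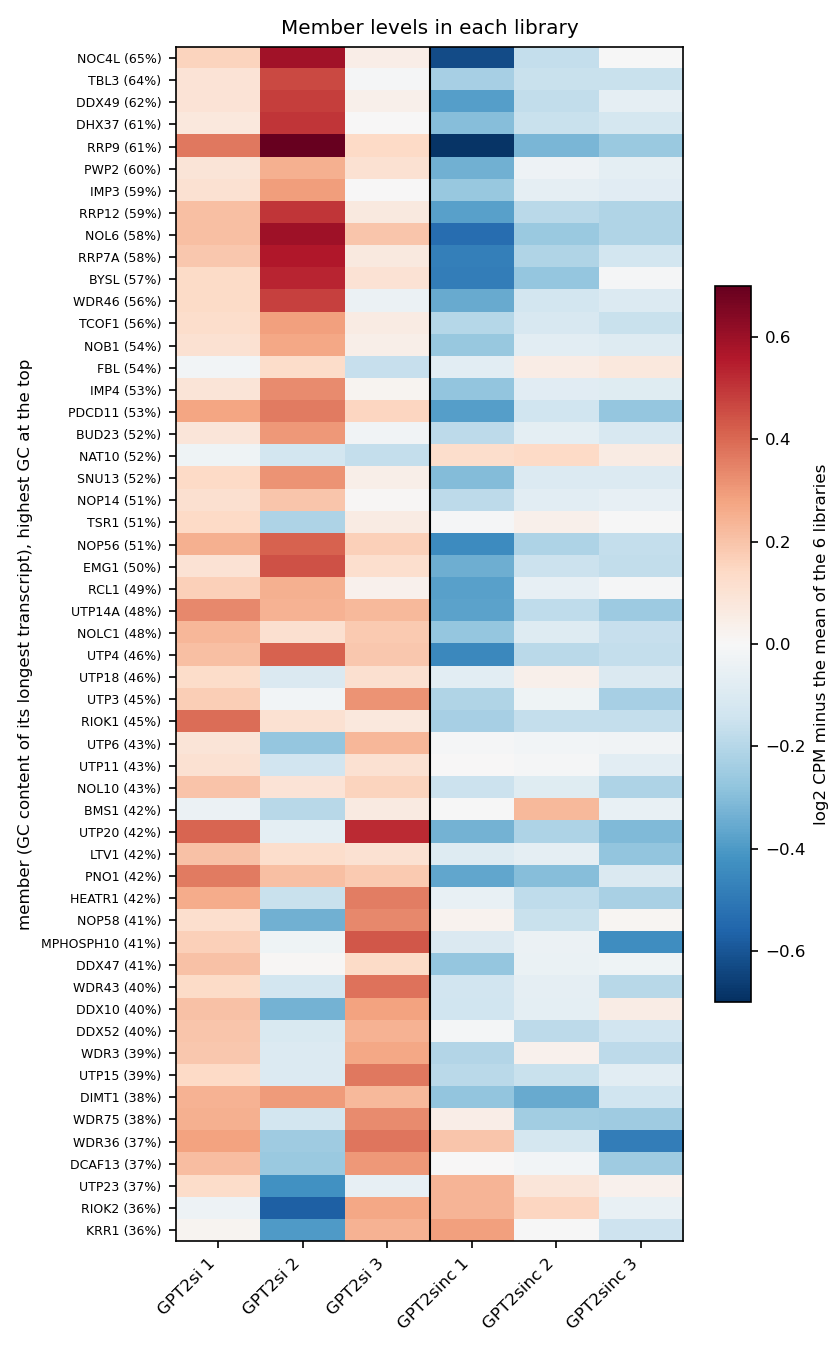
Level of each member (rows, ordered by GC content of its longest transcript, highest at the top) in each library (columns), as log2 CPM minus the mean of the 6 libraries. GPT2si 2 is redder than GPT2si 1 and 3 in most of the upper rows and bluer in most of the lower rows, and GPT2sinc 1 is the bluest GPT2sinc column in most upper rows.

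This spread went with base composition. GC content of the longest transcript ran from 36.0% for KRR1 to 64.8% for NOC4L. In 25 members GPT2si 2 was the highest GPT2si library, and their median GC content was 55.8%. In 24 it was the lowest GPT2si library, with a median GC content of 41.2%, and in 5 it lay between. Across the members, the difference of GPT2si 2 from the mean of GPT2si 1 and 3 had a Spearman correlation of 0.88 with GC content (n = 54 genes, which share these libraries). Over 16825 tested genes with a GC value it was 0.61. For GPT2sinc 1 against GPT2sinc 2 and 3 the values were −0.73 and −0.29. The group log2 fold change correlated with GC content at 0.45 across the members and at 0.20 across those genes.

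Of the 7 members that rose, 6 were among the 25 with GPT2si 2 highest, and UTP14A was among the 5 between. Groups were separate, with GPT2si higher, in 24 of the 25, in 6 of the 24 and in 4 of the 5. Of all genes tested, 14.9% were separate and higher, and they were not split in this way. The split, the calls and the separation all use the GPT2si 2 values, so these counts are not independent of the split. A trend on GC content and transcript length was then fitted for each library and taken out in the edgeR fit. The members' correlation of log2 fold change with GC content became 0.09, and that over the tested genes with a GC value 0.01. Taking out the trend in this fit brings these values near 0 by design. In that fit 34 members rose and 0 fell, with a median of 0.38, and 50 were positive. It called 7.32% of all genes tested higher and moved the median of all genes to 0.04. The 34 comprised 20 of the 25, 11 of the 24 and 3 of the 5, among them all 5 members of UTP-A. UTP20 was at 0.75 in that fit (edgeR adjusted p = 0.00712), HEATR1 at 0.50 (edgeR adjusted p = 0.00836) and WDR75 at 0.49 (edgeR adjusted p = 0.00712). FBL (−0.05), TSR1 (0.01), UTP23 (−0.04), RIOK2 (−0.01) and NAT10 (−0.22, edgeR adjusted p = 0.0597) did not pass there either.

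**Figure D5:**
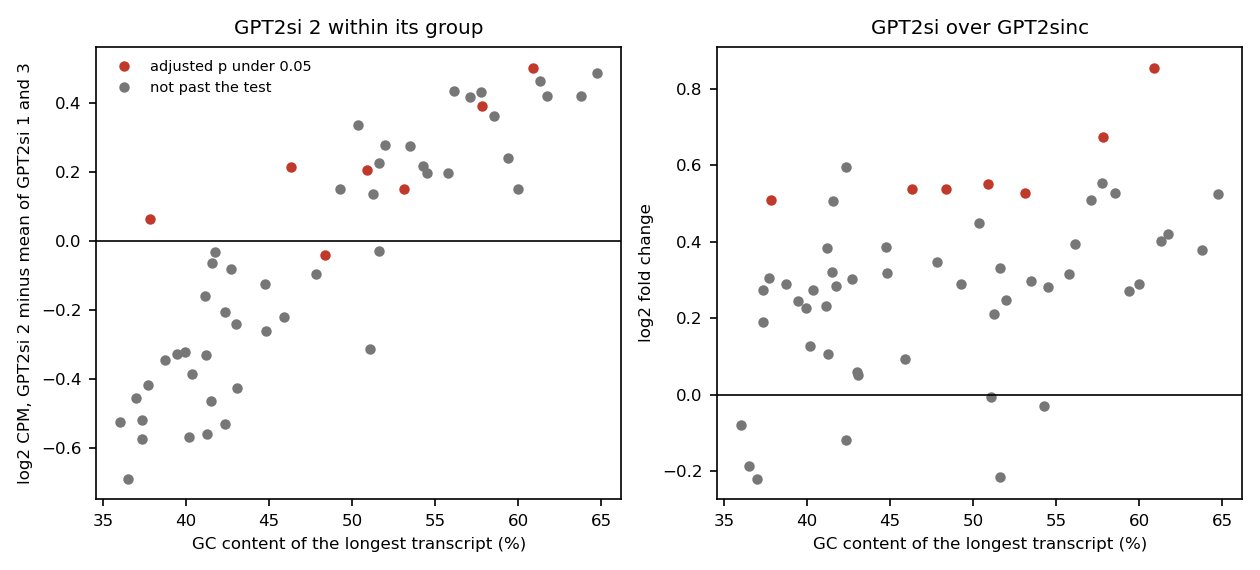
Members (points, red where past the test) by GC content of the longest transcript (horizontal axes, percent). The left panel shows log2 CPM in GPT2si 2 minus the mean of GPT2si 1 and 3 (Spearman 0.88), and the right panel the group log2 fold change (Spearman 0.45).

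Other genes of the pathway were examined as 6 lists, with counts from the same fit. Over all genes tested, 10.3% were higher at an unadjusted p under 0.05 in edgeR and 3.35% passed as higher in DESeq2. Of 48 assembly factors of the large (60S) subunit, 5 rose and 0 fell, 45 were positive and the median was 0.27, against 7 of 54, 47 and 0.30 for the small subunit factors. The difference between these sets was not tested. RRS1 was at 28.0, 32.5 and 26.8 CPM in GPT2si, against 12.99, 16.0 and 16.4 CPM in GPT2sinc. MRTO4 (log2 fold change 0.72, SE 0.11), NOP2, an rRNA methyltransferase (0.74, SE 0.15), and MAK16 (0.65, SE 0.12) rose too. NOL9 was the fifth, beyond the 4 genes the naming rule allows. Of 22 further SSU processome and 40S factors, 0 passed edgeR (6 higher at an unadjusted p under 0.05, 2 in DESeq2), 17 were positive and the median was 0.19.

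The proteins of H/ACA snoRNPs, which guide pseudouridylation, had a median of 0.34 over 6 genes, all positive, of which 0 passed edgeR (5 higher at an unadjusted p under 0.05, 1 in DESeq2). The 8 chaperones of snoRNP assembly had a median of 0.25, and 0 passed (unadjusted p under 0.05 in 3 higher and 1 lower, and 1 higher in DESeq2). The 13 genes of the RNA exosome, which trims precursors, had a median of 0.18, and 0 passed (1 higher at an unadjusted p under 0.05, 1 in DESeq2). The 32 proteins of the small subunit itself had a median of 0.17 within a narrow range of 0.06 to 0.25, all positive, and 0 passed (3 higher at an unadjusted p under 0.05, 0 in DESeq2).

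Promoters were compared because most members lay to the same side. RefSeq windows of 250 bases before and 50 after the gene start (GRCh38.p14) were found for 43 of the 54 members. The E-box CACGTG, the palindromic core site of several basic helix-loop-helix factors, is in the windows of 18 of the 43 (41.9%), beside 7.43% of all 27305 gene promoters and 9.94% of the 11739 belonging to genes tested here. It is in 4 of the 7 members that rose (RRP9, NOL6, UTP4 and UTP14A) and in 14 of the 36 others. The ETS-type motif CCGGAAGT, searched on both strands, is in 8 of the 43 (18.6%), beside 8.27% of the promoters of genes tested here and 4.44% of all promoters. The motif TATAAA, also on both strands, is in 3 of the 43 (6.98%), beside 5.66% of the promoters of genes tested and 11.95% of all promoters, so that the share lies above the one and below the other. The recognition motif of NRF1 is in 3 of the 43 as well (6.98%), beside 2.32% of the promoters of genes tested and 1.36% of all promoters. Matches of different motifs were counted separately, whether or not they overlap. A match describes the sequence and is not evidence of binding.

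Of the 20 E-box matches in the members' windows, 17 begin within 50 bases of the start site. Positions in the promoters of other genes were not examined. The windows of 30 bases below are shown for members that rose (RRP9, NOL6 and UTP4), for members with large estimates that did not pass (BYSL and PNO1), and for members with negative estimates (FBL and NAT10). Each is given 5′ to 3′ on the gene's strand with the E-box in capitals, and positions count the first base of the E-box from the start site.
RRP9 (chr3:51941892-51941921, minus, E-box at −5): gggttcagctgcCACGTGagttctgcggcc
NOL6 (chr9:33473894-33473923, minus, E-box at 14): ggcatttccgccCACGTGggaagctatgag
UTP4 (chr16:69132621-69132650, plus, E-box at −16): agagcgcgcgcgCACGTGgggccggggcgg
BYSL (chr6:41921515-41921544, plus, E-box at 29): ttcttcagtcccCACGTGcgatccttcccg
PNO1 (chr2:68157885-68157914, plus, E-box at 10): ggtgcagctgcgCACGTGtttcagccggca
FBL (chr19:39846356-39846385, minus, E-box at 7): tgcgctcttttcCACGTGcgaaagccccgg
NAT10 (chr11:34105602-34105631, plus, E-box at −15): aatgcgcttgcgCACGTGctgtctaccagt

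The stretches upstream of the start site of UTP20 and UTP14A show the element in its wider context. In UTP20, whose fold change was the largest of those with GPT2si 2 lowest in its group, the E-box begins at −10. In UTP14A it begins at −241, the one case among the risers away from the start, and the stretch printed ends where the first annotated exon begins.
UTP20 (chr12:101279855-101280104, plus): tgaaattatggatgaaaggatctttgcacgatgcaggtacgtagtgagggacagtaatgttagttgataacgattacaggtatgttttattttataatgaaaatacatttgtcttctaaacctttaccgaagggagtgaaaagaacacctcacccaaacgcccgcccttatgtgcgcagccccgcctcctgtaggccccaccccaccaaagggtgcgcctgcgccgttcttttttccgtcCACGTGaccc
UTP14A (chrX:129905914-129906120, plus): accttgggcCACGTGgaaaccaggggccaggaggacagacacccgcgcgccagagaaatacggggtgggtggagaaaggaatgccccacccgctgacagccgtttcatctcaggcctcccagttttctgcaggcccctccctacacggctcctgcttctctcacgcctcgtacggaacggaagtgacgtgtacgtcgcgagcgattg
Among the members that rose, NOP56, PDCD11 and DIMT1 have no match in the window, while FBL and NAT10, which did not pass, have one near the start site.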

How the data were processed

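Poly(A) RNA was copied into strand-marked libraries, per the labels' protocols. The authors deposited a table of raw whole-number counts, with genes as Ensembl identifiers and a column for each library. Per the submitters' processing notes CASAVA and StringTie were used, with neither role nor version stated. Aligner, counter, use of strand, genome build and annotation: not given in the sources used here. All 6 columns were matched to libraries by the column names in the sample descriptions, and 0 rows lacked a gene identifier. A floor of 3 counts equals 0.0590 to 0.0715 CPM per library; it covers counting error only, since amplified reads lacking molecular identifiers may copy one molecule.

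The edgeR 4.0.16 quasi-likelihood F test (R 4.3.3) was run with TMM factors, filterByExpr and group as the only term, and p-values were adjusted by Benjamini-Hochberg over the 17006 genes kept, with a threshold of 0.05. SE values derive from the F statistic. Alternatives were DESeq2 1.42.0, limma-voom (limma 3.58.1), other size factors and filters, a replicate block, GC and length offsets (loess, span 0.5, covering 98.9% of tested genes and all 54 members) and leaving out each library. The edgeR test was also run on simulated counts, with the outcome not reported here. Those counts were drawn without a trend on GC content, so that run does not cover such a trend. Positions, lengths and GC content come from GENCODE 29 (GRCh38) and promoters from RefSeq (GRCh38.p14). Centred values use log2 CPM with a prior count of 2. No pair of libraries agreed within sampling noise (chi-square per degree of freedom at least 7.71). Because the labels do not say that replicates were grown separately, p-values reflect only how far these libraries scatter, which may be technical.

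The members, the lists and the tests were chosen with earlier results of these data known. The naming rule takes GPT2, every member past the test, the 3 members of each role group with the smallest p, the extremes of fold change and of level, and up to 4 genes past the test of each other list. It took 31 members. The other members, CHTF8, UTP14C and NOL9 were named after their values were seen.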

Additional observations from a re-analysis of the deposited data

How the results depend on the processing

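GPT2 passed in all 14 alternatives, with log2 fold changes from −1.31 to −1.24. The members' median stayed between 0.25 and 0.33 in 13 of them and was 0.38 with GC and length offsets. No alternative called a member lower. Members called higher numbered 7 as reported, 3 with DESeq2 size factors, with upper-quartile factors and with limma-voom (NOP56, UTP14A and PDCD11 each time), 0 with no low-count filter, 15 with DESeq2 and 34 with GC and length offsets, and 0 to 14 when single libraries were left out. With no low-count filter 28550 genes were tested. Over all genes, calls higher and lower were 98 and 143 as reported. Higher calls were 61 with DESeq2 size factors, 75 with upper-quartile factors and 66 with limma-voom. Calls higher and lower were 17 and 27 with no low-count filter, 569 and 491 with DESeq2, and 1245 and 700 with GC and length offsets. Without single libraries they were 0 to 377 higher and 1 to 459 lower. The cause of these shifts was not tested, beyond the smaller number of samples or larger number of genes that an alternative itself brings.

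Replicate numbers do not pair the libraries: deviations from the group means correlated at 0.09, 0.11 and −0.19 between same-numbered libraries, and of the 6 libraries only GPT2si 1 and GPT2sinc 2 correlated best with their own number. With a replicate block the calls were 252 higher (1.48% of genes) and 306 lower, and 10 members were higher. FBL ranged from −0.12 to 0.041 when single libraries were left out, and its sign turned without GPT2si 3 (0.041) and without GPT2sinc 3 (0.0008). KRR1 ranged from −0.23 to 0.060 likewise, and its sign turned without GPT2si 2 (0.060), without GPT2sinc 1 (0.05) and with GC and length offsets (0.20). Neither passed in any alternative. Groups of 3 libraries and calls close to the threshold limit what single calls show. Low members such as MPHOSPH10 and LTV1 rest on 191 to 365 counts a library (SE 0.18 and 0.14).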

Other observations

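SnoRNA genes lie within several members in GENCODE 29: SNORD53, SNORD53B and SNORD92 in introns of WDR43, SNORD11, SNORD11B and SNORD70 in introns of NOP58, and SNORD91A and SNORD91B in introns of TSR1. SNORD56, SNORD57, SNORD86, SNORD110 and SNORA51 overlap annotated exons of NOP56. The count table holds 13 such rows, and the largest count of any of them in any library was 7, in libraries selected for poly(A) tails. Differences in these guide RNAs could not be measured in these libraries.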
